A study of Mus musculus with 15 samples.

Results

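Immediate early transcription factors were examined in mouse fibroblasts of 5 sources. The group was defined by name and holds 10 of the 31147 genes tested: Fos, Fosb, Fosl1, Fosl2, Jun, Junb, Egr1, Egr2, Egr3 and Atf3. Probes whose gene name, or symbol in brackets in the probe description, matched one of them were taken. This gave 12 probes of the 41174 on the arrays, with 2 probes each for Junb and Fosl2, and all 12 passed the filter that left 38522 probes for testing. The sources were TAF-el4, TAF-tib42 and TAF-tib48, which the labels call resistant, and TAF-tib6 and NSF, which the labels call sensitive. From the series title, TAF is taken to mean tumour-associated fibroblasts, and the response words to refer to anti-VEGF therapy of the tumours. EL4 is known as a T-cell lymphoma line of the mouse. The meaning of the names tib42, tib48, tib6 and NSF, the strain, age, passage, serum, any stimulus and the time of harvest were not found in the labels. Each source was measured on 3 arrays, 15 in all, with the fibroblast RNA in Cy5 and a commercial pool of mouse reference RNA in Cy3 on every array. A value below is a log2 ratio of a source to that reference, a difference between sources is a log2 fold change, and n is 3 arrays per source unless said otherwise.

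Immediate early genes are transcribed within minutes of a stimulus such as serum or a growth factor, from factors already in the cell and without new protein synthesis. Their messages are short-lived, so their levels fall back soon after the stimulus. Fos, Fosb, Fosl1 and Fosl2 encode the Fos proteins, which bind DNA as dimers with Jun proteins in the complex called AP-1. Jun and Junb encode Jun proteins, which also dimerise among themselves. Egr1, Egr2 and Egr3 encode zinc finger factors of the early growth response family, and Atf3 encodes a stress-induced factor of the wider AP-1 superfamily. In fibroblasts, the ERK kinase cascade and serum response factor drive many of these genes, and the members are classically induced when serum is given to quiescent cells.

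The arrays had median Cy5 intensities of 174.7 to 285.9 over a median background of 52 to 56. Log2 ratios correlated over probes at 0.9595 to 0.9873 between arrays of a source and at 0.8401 to 0.9484 between sources. All 10 fibroblast markers were well above background on all 15 arrays. They summed to 323265 to 344736 in NSF and to between 263334 and 316774 on the arrays of the other sources, without overlap. Col1a1, Col1a2 and Vim read between 65284 and 65301 on every array, the top of the scanner's range, so the sum cannot show differences in these genes. Among the others, Dcn, the matrix proteoglycan decorin, averaged a Cy5 intensity of 598.5 in TAF-el4, 600 in TAF-tib42, 750.2 in TAF-tib48 and 1808 in TAF-tib6, against 5658 in NSF, and Fap was dim at 82.4 to 109.8 per array. The 10 macrophage markers summed to 2939 to 4210 in TAF-el4, 3079 to 3809 in TAF-tib42, 3053 to 4575 in TAF-tib48, 3072 to 3262 in TAF-tib6 and 3163 to 4466 in NSF. These ranges overlapped across all sources, as did those of the lymphocyte, epithelial and melanocyte markers. The 9 endothelial markers summed to 2430 to 3836 in TAF-tib48, where Fos and Junb were lowest, and to between 1457 and 2197 on the arrays of the other sources. Most of this came from Emcn, at a mean of 1281 in TAF-tib48 and 249.6 to 329.1 in the other sources, and Cdh5 stood at 245.2 there, against 115.1 to 148.2. The part of other cells in the results was not tested. In RNA of a whole culture, fewer cells that express a gene and less RNA per cell cannot be told apart. By their barcodes the slides form 3 runs of consecutive numbers with 5 arrays each, which the files do not explain. The first run holds the 3 NSF arrays and TAF-el4 replicates 1 and 2, the second holds TAF-el4 replicate 3, the 3 TAF-tib42 arrays and TAF-tib48 replicate 1, and the third holds TAF-tib48 replicates 2 and 3 and the 3 TAF-tib6 arrays. Fits with the run as a block are therefore given for the members whose calls they change.

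The 250 bases before the transcription start are shown for Egr2, Fos and Junb, because these members varied most among those with a listed promoter and the sequences show which letters known for stimulus-driven promoters stand there. They come from the RefSeq annotation of GRCm38.p6, 5′ to 3′ on the strand of the gene, and the starts lie just after the last base. Capitals mark the CArG box, the site bound by serum response factor, and TGACG, the core of the cyclic AMP response element, on either strand. Of the 5 listed starts of Egr2, the one shown is the first whose window holds both of these motifs. Their presence in that window therefore follows from the choice of start.
Egr2, chr10:67537619-67537868, plus strand: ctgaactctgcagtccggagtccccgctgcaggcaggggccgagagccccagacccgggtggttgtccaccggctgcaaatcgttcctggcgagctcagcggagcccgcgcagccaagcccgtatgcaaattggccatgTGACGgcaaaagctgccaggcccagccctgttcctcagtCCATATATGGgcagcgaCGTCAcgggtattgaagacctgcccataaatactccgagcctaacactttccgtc
Fos, chr12:85473640-85473889, plus strand: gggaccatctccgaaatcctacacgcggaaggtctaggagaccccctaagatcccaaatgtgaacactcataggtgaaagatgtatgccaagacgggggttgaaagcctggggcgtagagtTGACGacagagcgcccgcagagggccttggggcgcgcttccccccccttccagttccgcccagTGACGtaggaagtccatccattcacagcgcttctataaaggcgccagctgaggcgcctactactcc
Junb, chr8:84978749-84978998, minus strand: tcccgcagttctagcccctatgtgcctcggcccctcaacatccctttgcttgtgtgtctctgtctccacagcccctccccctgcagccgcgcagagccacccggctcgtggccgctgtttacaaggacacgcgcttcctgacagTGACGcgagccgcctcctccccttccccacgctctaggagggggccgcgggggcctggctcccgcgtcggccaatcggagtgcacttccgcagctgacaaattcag

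Counted from the start, the CArG box of this Egr2 window began at base -72 and its TGACG matches at -111 and, on the other strand, -55. Fos held TGACG at -129 and -66 and the TATA motif TATAAA at -33, and Junb held TGACG at -106. A CArG box stood in 1.47% of the 32851 promoter windows of this length, TGACG in 17.8% and TATAAA in 12.4%. The table lists 7 of the 10 members, with 5 starts for Egr2, 4 of which had a CArG box, and does not list Egr1, Egr3 or Fosl1. Among the 7 listed members, TGACG also occurred in Fosb and Atf3, and GCGNGGGCG, the EGR binding site with any base at its N, occurred in Fosb and Fosl2 and in 4.7% of all windows. The AP-1 site TGANTCA was found in none of the 7 and in 6.75% of all windows. Both strands were searched, a CArG box reads the same in pattern on both, and no match says only that these letters are not in these 250 bases.

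The members fell into 3 kinds of pattern. Fos, Junb, Egr1 and Egr2 varied most, were high in TAF-el4 and NSF, and were lower in TAF-tib6, TAF-tib42 and TAF-tib48. Fosl1 was high in TAF-el4 alone among the sources, and Jun and Fosl2 varied by less. Fosb, Egr3 and Atf3 were called in none of the 10 pairs of sources, although Atf3 was in 1 pair with the slide run as a block. Atf3 was also called in TAF-el4 against TAF-tib6 without the replicate 3 arrays. Fosb and Egr3 were called in some pairs with Cy5 alone, and Egr3 in some with median centring. The span between the highest and the lowest source mean was 3.04 for Egr1, 2.77 for Egr2, 2.45 for Fos and 1.41 for Junb. Across all probes tested the median span was 0.16, and 0.104% of probes spanned as much as Egr1, 0.148% as much as Egr2, 0.2% as much as Fos and 1% as much as Junb. Of the 12 member probes, 6 spanned at least 1, that is 2-fold, against 2.14% of all probes tested.

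**Figure D1:**
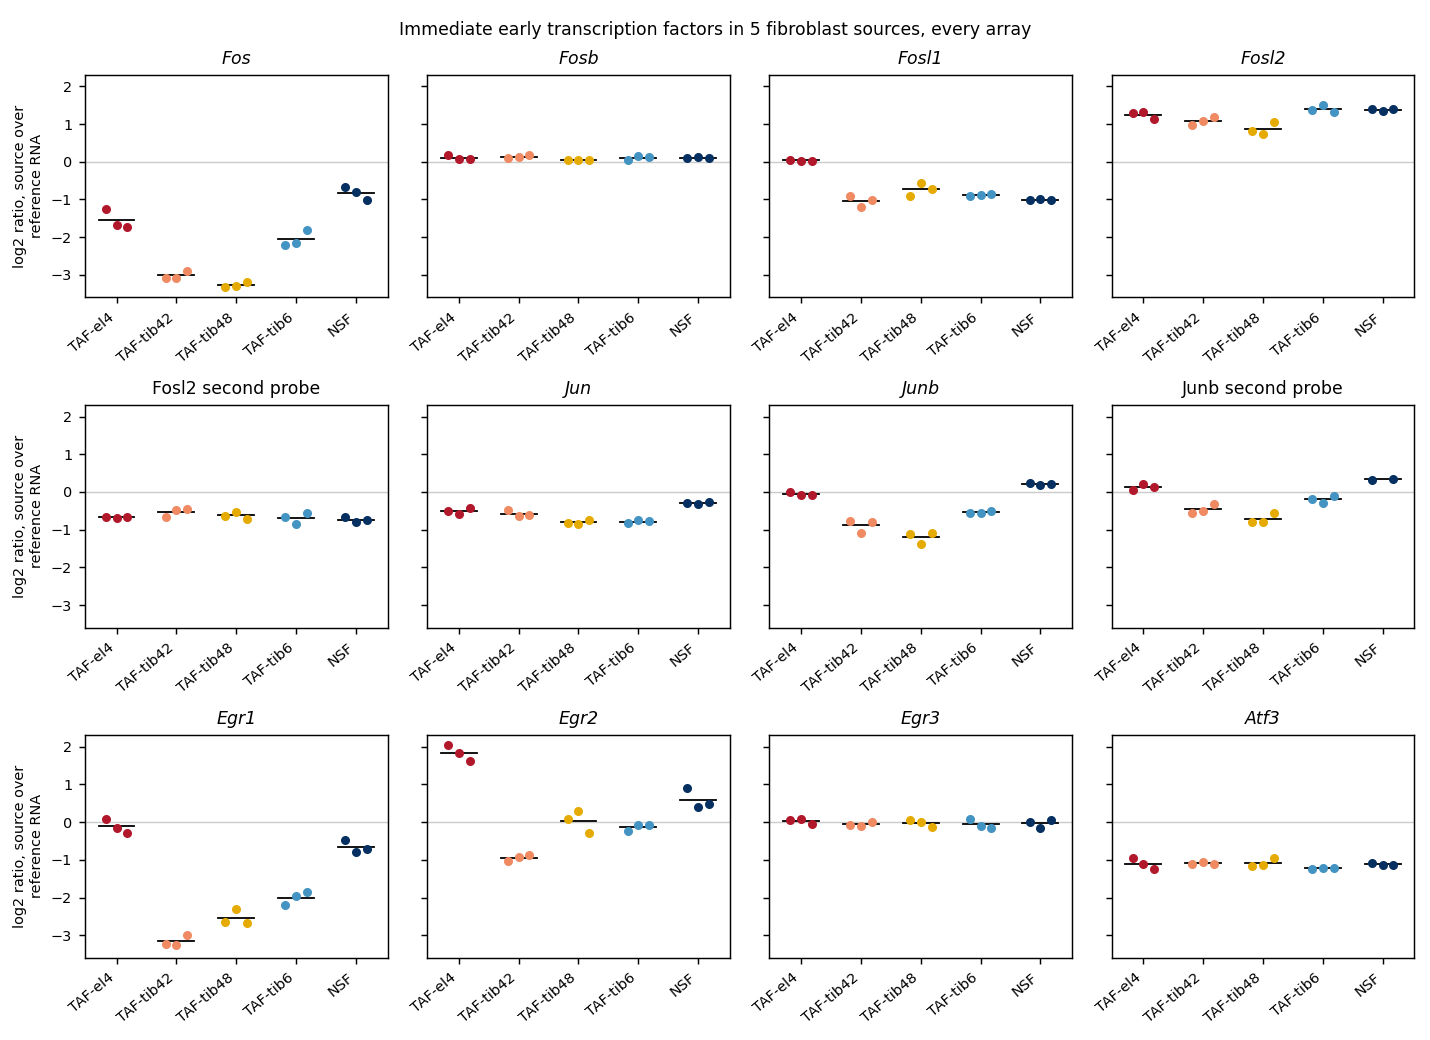
Log2 ratio of fibroblast RNA to reference RNA (y axis) for each of the 12 member probes in the 5 sources (x axis); points are arrays (3 per source, 2 for the second Junb probe in NSF) and lines are source means. Fos, Junb, Egr1 and Egr2 reach their lowest levels in TAF-tib42 or TAF-tib48, Fosl1 stands high in TAF-el4, and Fosb, Egr3 and Atf3 are flat.

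Fos encodes the founding Fos protein and is among the fastest genes to respond to serum. Its log2 ratios were -1.25, -1.68 and -1.73 in TAF-el4, -3.07, -3.08 and -2.90 in TAF-tib42, and -3.33, -3.30 and -3.19 in TAF-tib48. They were -2.20, -2.16 and -1.81 in TAF-tib6, against -0.67, -0.81 and -1.01 in NSF. Every NSF array lay above every array of the other sources, and every array of TAF-tib42 and TAF-tib48 lay below every array of the rest. Relative to NSF, Fos was lower in all 4 other sources, with log2 differences of -0.72 in TAF-el4, -2.19 in TAF-tib42, -2.45 in TAF-tib48 and -1.23 in TAF-tib6 (SE 0.12, adjusted p between 1.23e-11 and 0.000137). With the slide run as a block the call of TAF-tib6 against NSF was lost (-1.05, adjusted p = 0.0778), and with log ratios scaled to 1 spread on all arrays that of TAF-el4 against NSF (-0.77, adjusted p = 0.0783). Relative to TAF-tib6, it fell 1.95-fold in TAF-tib42 and 2.33-fold in TAF-tib48. TAF-el4 was 1.42-fold higher than TAF-tib6, but this call was lost without the replicate 1 arrays (log2 difference 0.28, adjusted p = 0.11) and with the slide run as a block (0.41, adjusted p = 0.405). TAF-tib42 and TAF-tib48, with means of -3.02 ± 0.10 and -3.27 ± 0.07 (SD, n = 3 each), were the only neighbours in the order of levels whose difference was not called (log2 difference 0.26, adjusted p = 0.172), although it was in a fit of those sources alone (adjusted p = 0.0217). The raw Cy5 intensity of the probe ran between 185 and 251 on the TAF-tib42 arrays, between 173 and 245 on the TAF-tib48 arrays and between 923 and 1438 on the NSF arrays. The median background of the arrays was 52 to 56, so Fos was dim in TAF-tib42 and TAF-tib48.

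Junb encodes a Jun protein that is a weaker activator than the product of Jun at many sites. Log2 ratios of its first probe, the brighter one over both dyes, were 0.00, -0.08 and -0.07 in TAF-el4, -0.76, -1.10 and -0.79 in TAF-tib42, and -1.11, -1.39 and -1.09 in TAF-tib48. In TAF-tib6 they were -0.56, -0.56 and -0.51, against 0.25, 0.20 and 0.20 in NSF. The order was that of Fos: NSF, TAF-el4, TAF-tib6, TAF-tib42, TAF-tib48. All 10 pairs were called, from a 2.65-fold fall in TAF-tib48 against NSF (adjusted p = 1.23e-10) to a log2 difference of -0.26 in TAF-el4 against NSF (adjusted p = 0.025). The last call was lost with the scanner's log ratio (adjusted p = 0.0972) and the authors' table (adjusted p = 0.0969). It was also lost with scaled log ratios, with Cy5 alone and without the replicate 1 or replicate 3 arrays. TAF-tib42 against TAF-tib6 was not called with Cy5 alone (-0.21, adjusted p = 0.115). Arrays of TAF-tib42 and TAF-tib48 overlapped, although their means differed by 0.31 (adjusted p = 0.0106). That call was lost with scaled log ratios, in a fit of those sources alone and without the replicate 1 or replicate 3 arrays. The second probe gave the same order over a narrower span, 1.04 log2 units, and was called in 9 pairs, all but TAF-el4 against NSF (log2 difference -0.21, adjusted p = 0.0948). One spot of this probe, on NSF replicate 2, carried an outlier flag and was left out, so its NSF mean of 0.33 rests on 2 arrays. With the slide run as a block, the first probe lost its call for TAF-el4 against TAF-tib6 (0.35, adjusted p = 0.302), TAF-tib42 against TAF-tib6 (-0.47, adjusted p = 0.0538), TAF-el4 against NSF (-0.25, adjusted p = 0.0769), TAF-tib6 against NSF (-0.60, adjusted p = 0.182) and TAF-tib42 against TAF-tib48 (0.23, adjusted p = 0.305). It kept it for both other resistant sources against NSF, for TAF-el4 against both of them, and for TAF-tib48 against TAF-tib6 (-0.70, adjusted p = 3.29e-05). The second probe lost 4 of its 9 calls with the block: TAF-el4 against TAF-tib6 (0.44, adjusted p = 0.118), TAF-tib42 against TAF-tib6 (-0.15, adjusted p = 0.584), TAF-tib6 against NSF (-0.65, adjusted p = 0.109) and TAF-tib42 against TAF-tib48 (0.33, adjusted p = 0.0715).

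Jun encodes the most studied Jun protein, a strong activator in AP-1. Its log2 ratios were -0.51, -0.59 and -0.44 in TAF-el4, -0.48, -0.64 and -0.61 in TAF-tib42, and -0.82, -0.86 and -0.75 in TAF-tib48. They were -0.82, -0.75 and -0.78 in TAF-tib6, against -0.29, -0.31 and -0.27 in NSF. NSF was again highest, but here TAF-tib6 stood with TAF-tib48 at the low end and TAF-tib42 stood with TAF-el4 in the middle. The whole span was 1.43-fold, between NSF and TAF-tib48. Of the 10 pairs 8 were called, and the exceptions were TAF-el4 against TAF-tib42 (0.07, adjusted p = 0.404) and TAF-tib48 against TAF-tib6 (-0.02, adjusted p = 0.788). Jun was thus higher in TAF-tib42 than in TAF-tib6, by 0.21 (adjusted p = 0.00489), where Fos, Junb, Egr1 and Egr2 were lower. This call was lost with the slide run as a block (0.22, adjusted p = 0.142) and without the replicate 1 arrays (0.14, adjusted p = 0.173).

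Fosl1 encodes Fra-1, a Fos protein without the strong activation domain of Fos, whose gene is itself a target of AP-1 and of sustained ERK activity. Its log2 ratios were 0.05, 0.03 and 0.02 in TAF-el4, -0.91, -1.21 and -1.01 in TAF-tib42, and -0.90, -0.56 and -0.73 in TAF-tib48. They were -0.90, -0.87 and -0.85 in TAF-tib6, against -1.02, -1.0 and -1.01 in NSF. All TAF-el4 arrays lay above all others, and NSF, where Fos was highest, was among the lowest sources for Fosl1. TAF-el4 was 2.11-fold higher than TAF-tib42 (adjusted p = 1.64e-09), 1.70-fold higher than TAF-tib48 (adjusted p = 2.28e-07), 1.88-fold higher than TAF-tib6 (adjusted p = 3.54e-08) and 2.06-fold higher than NSF (adjusted p = 5.81e-09). These 4 calls were kept with the slide run as a block, where the difference from TAF-tib6 was 1.15 and that from NSF 1.05 on the log2 scale. The other called pairs were small: TAF-tib48 exceeded NSF by 0.28 and TAF-tib42 differed from TAF-tib48 by -0.31. The slide-run block ended both of these calls (0.13, adjusted p = 0.653, and -0.14, adjusted p = 0.431), and with it TAF-tib48 against TAF-tib6 was called (0.23, adjusted p = 0.0306).

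Fosl2 encodes Fra-2, the other Fos protein that lacks that domain, and its 2 probes did not follow each other. The brighter probe read 1.30, 1.32 and 1.12 in TAF-el4, 0.98, 1.08 and 1.18 in TAF-tib42, and 0.83, 0.75 and 1.05 in TAF-tib48. It read 1.36, 1.498 and 1.32 in TAF-tib6, against 1.40, 1.35 and 1.39 in NSF. No neighbours in its order of levels differed, but 5 wider pairs did, among them TAF-tib48 against TAF-tib6 (-0.52, adjusted p = 2.96e-05) and TAF-tib48 against NSF (-0.50, adjusted p = 3.78e-05). The second probe, with raw Cy5 intensities of 226 to 357 against 1073 to 2091 for the brighter one, spanned 0.20 log2 units. It was called in 1 pair, TAF-tib42 against NSF, and in the opposite direction: 0.20 (adjusted p = 0.0458), where the brighter probe gave -0.30 (adjusted p = 0.0054). The direction of Fosl2 in that pair therefore depends on the probe. Both calls were lost with the slide run as a block, as were 3 of the other 4 calls of the brighter probe, and TAF-tib48 against TAF-tib6 was kept (-0.49, adjusted p = 0.000228).

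Fosb encodes a Fos protein with a full activation domain and a truncated splice form. Its log2 ratios lay between 0.04 and 0.18 on all 15 arrays, with raw Cy5 intensities of 765 to 1499, and its source means spanned 0.09. The Cy3 intensity of the reference at this probe also differed, at 419 to 442 on the NSF arrays and 601 to 630 on the TAF-tib48 arrays. No pair was called, and the smallest adjusted p was 0.188, in TAF-tib42 against TAF-tib48. With Cy5 alone Fosb was called in TAF-tib48 against NSF (0.42, adjusted p = 0.00238) and TAF-tib6 against NSF (0.34, adjusted p = 0.0152). It was also called in TAF-el4 against TAF-tib48 with Cy5 alone (-0.33, adjusted p = 0.0133). Atf3, which mostly acts as a repressor, lay between -1.24 and -0.95 on all arrays with source means spanning 0.14. It was called higher in TAF-tib48 than in TAF-tib6 with the slide run as a block (log2 difference 0.18, adjusted p = 0.037). Without the replicate 3 arrays it was called higher in TAF-el4 than in TAF-tib6 (0.19, adjusted p = 0.0443). Its raw Cy5 intensity, 128 to 213 over a background of 52 to 56, was low throughout. Egr3 had log2 ratios between -0.16 and 0.08 and Cy5 intensities of 81 to 203, and it was well above background on 1 of 3 NSF arrays and on all arrays of the other sources. With median centring Egr3 was called higher than in NSF in TAF-el4 (0.33, adjusted p = 0.0213), TAF-tib42 (0.34, adjusted p = 0.0114) and TAF-tib48 (0.34, adjusted p = 0.0131). With Cy5 alone it was called higher than in NSF in TAF-tib42 (0.78, adjusted p = 0.0307) and TAF-tib48 (0.70, adjusted p = 0.0459). For Egr3 and Atf3 the low signal limits what could be detected.

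Egr1 encodes the early growth response factor that ERK induces through serum response factor and its ternary complex partners. Its log2 ratios were 0.09, -0.15 and -0.29 in TAF-el4, -3.23, -3.25 and -2.98 in TAF-tib42, and -2.65, -2.31 and -2.68 in TAF-tib48. They were -2.21, -1.96 and -1.86 in TAF-tib6, against -0.48, -0.79 and -0.72 in NSF. The 5 sources did not overlap on any array, and Egr1 was the member with the widest span. All 10 pairs were called, and the order was TAF-el4, NSF, TAF-tib6, TAF-tib48, TAF-tib42. TAF-el4 was 8.23-fold higher than TAF-tib42 (log2 difference 3.04, SE 0.11, adjusted p = 4.94e-13) and 5.40-fold higher than TAF-tib48 (2.43, adjusted p = 2.05e-11), which are labelled resistant as well. Against TAF-tib6, Egr1 was 3.73-fold higher in TAF-el4, 2.21-fold lower in TAF-tib42 and 1.45-fold lower in TAF-tib48. Relative to NSF, it was 1.46-fold higher in TAF-el4, 5.63-fold lower in TAF-tib42, 3.69-fold lower in TAF-tib48 and 2.55-fold lower in TAF-tib6. With the slide run as a block, 9 of these calls were kept, and TAF-tib42 against TAF-tib48 was lost (-0.50, adjusted p = 0.0634). That pair was also lost without the replicate 2 arrays (-0.44, adjusted p = 0.0666). With log ratios scaled to 1 spread on all arrays, TAF-el4 against NSF (0.48, adjusted p = 0.194) and TAF-tib48 against TAF-tib6 (-0.18, adjusted p = 0.572) were not called.

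Egr2, also known as Krox20, is a related zinc finger factor that in fibroblasts responds to serum and to TGF-beta. Its log2 ratios were 2.04, 1.83 and 1.62 in TAF-el4, -1.03, -0.92 and -0.88 in TAF-tib42, and 0.09, 0.29 and -0.30 in TAF-tib48. They were -0.25, -0.08 and -0.09 in TAF-tib6, against 0.89, 0.41 and 0.48 in NSF. TAF-el4 lay above and TAF-tib42 below all other arrays, while TAF-tib48 and TAF-tib6 overlapped and did not differ (0.17, adjusted p = 0.398). The largest difference was 6.82-fold, TAF-el4 over TAF-tib42 (log2 difference 2.77, SE 0.13, adjusted p = 1.44e-11). TAF-el4 was also 3.48-fold higher than TAF-tib48, 3.91-fold higher than TAF-tib6 and 2.35-fold higher than NSF (adjusted p = 8.2e-09, 4.48e-09 and 1.46e-06). TAF-tib48 was 1.96-fold above TAF-tib42 for Egr2, a call that was kept with the slide run as a block, in TAF-tib42 against TAF-tib48 as a log2 difference of -1.03 (adjusted p = 0.00143). Relative to NSF, Egr2 differed by -1.53 in TAF-tib42, -0.57 in TAF-tib48 and -0.73 in TAF-tib6, all 3 called. The last 2 of these calls were lost with the slide run as a block (-0.18, adjusted p = 0.773, and -0.32, adjusted p = 0.77).

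By pair of sources, more member probes were called than the share of all probes in every pair, with each pair sharing its sources with others. In TAF-el4 against TAF-tib6, 7 member probes were higher and 0 lower, where 20.6% of all probes tested were called, 11.6% higher and 8.95% lower. TAF-tib42 had 1 higher and 6 lower than TAF-tib6, against 24.8% of all probes, 12.2% higher and 12.6% lower. TAF-tib48 had 0 higher and 5 lower than TAF-tib6, against 24.8%, 12.3% higher and 12.5% lower. With the slide run as a block it had 2 higher (Fosl1, Atf3) and 5 lower, against 8328 of all 38522 probes called. The 3 resistant sources thus did not move one way relative to TAF-tib6. Relative to NSF, TAF-el4 had 3 higher (Fosl1, Egr1, Egr2) and 3 lower (Fos, Jun, Junb), against 17.4% of all probes, 8.88% higher and 8.54% lower. TAF-tib42 had 1 higher and 7 lower than NSF, against 24.2%, 11.2% higher and 13% lower. TAF-tib48 had 1 higher and 7 lower than NSF, against 26.5%, 12.4% higher and 14.1% lower. TAF-tib6 had 0 higher and 6 lower than NSF, against 11%, 4.41% higher and 6.62% lower. The member probes called were thus mostly lower than in NSF. The exceptions were the 3 in TAF-el4, the second Fosl2 probe in TAF-tib42 and Fosl1 in TAF-tib48. Among the resistant sources, TAF-el4 had 6 higher and 0 lower than TAF-tib42, against 23.1% of all probes, 13.2% higher and 9.93% lower. TAF-el4 had 8 higher and 0 lower than TAF-tib48, against 23.6%, 13.5% higher and 10.1% lower. TAF-tib42 had 3 higher and 3 lower than TAF-tib48, against 14.2%, 6.49% higher and 7.66% lower, a count that came to 3 in all without the replicate 1 arrays or without the replicate 2 arrays. The median log2 difference of the 12 probes was 0.57 in TAF-el4 against TAF-tib48 and -0.51 in TAF-tib48 against NSF, against 0.00 over all probes in both pairs.

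**Figure D2:**
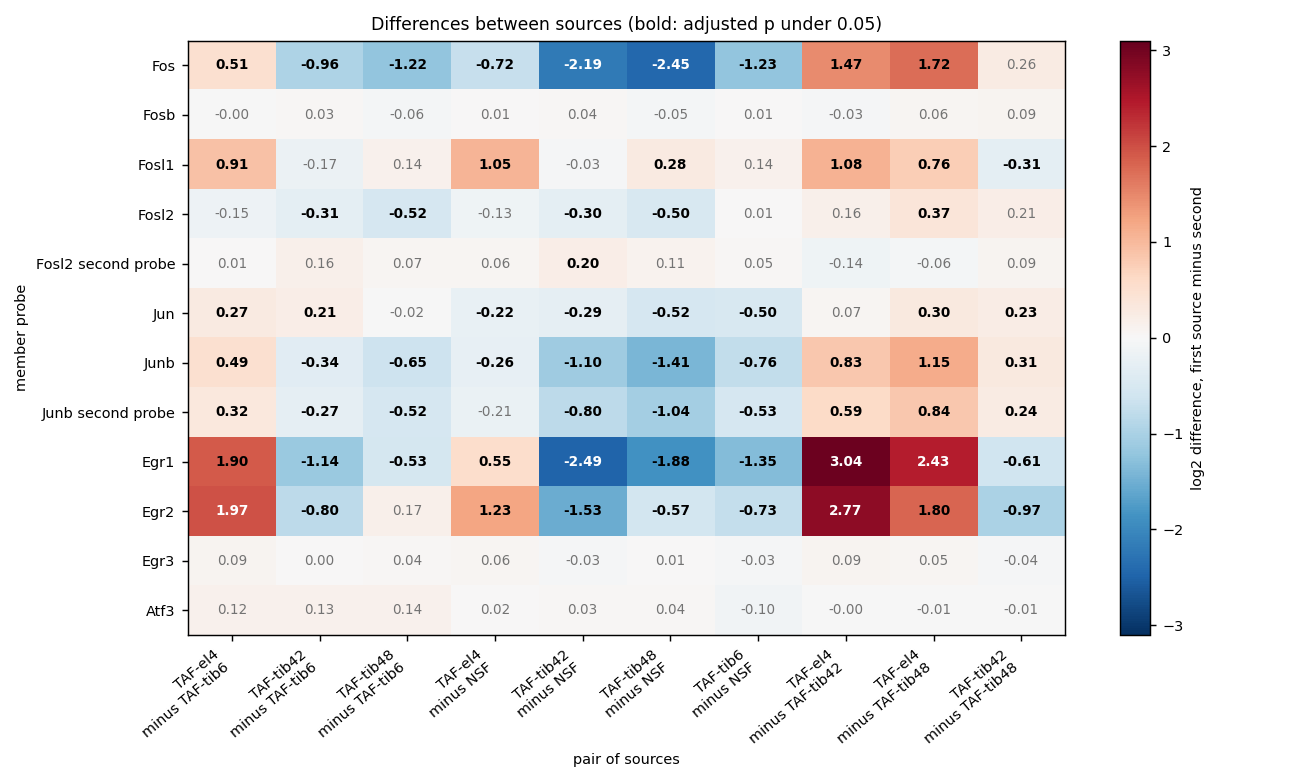
Log2 difference, first source minus second, for the 12 member probes (rows) in the 10 pairs of sources (columns); red is higher in the first source and blue lower, and bold values have an adjusted p under 0.05. Egr1 and Junb are bold in all 10 columns, and Fosb, Egr3 and Atf3 in none.

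Because slide runs and sources overlap only in part, the differences were also taken within a run. In the first run, TAF-el4 replicates 1 and 2 stood 0.63 above the NSF arrays for Egr1 (adjusted p = 0.0017), 1.34 above them for Egr2 (adjusted p = 7.1e-06) and 1.05 above them for Fosl1 (adjusted p = 4.31e-08). In the same run Fos was lower in TAF-el4 than in NSF, by a log2 difference of -0.63 (adjusted p = 0.00222). In the second run, where a single TAF-el4 array sat beside the 3 TAF-tib42 arrays, Egr1 was higher in TAF-el4 by 2.87 (adjusted p = 2.87e-09), Egr2 by 2.56, Fos by 1.29 and Junb by 0.82; the lone array is assumed to vary like the others. In the third run, TAF-tib48 differed from TAF-tib6 by -1.19 for Fos (adjusted p = 4.5e-06), -0.70 for Junb (adjusted p = 3.35e-05) and -0.48 for Egr1 (adjusted p = 0.0106). These within-run values had the sign and about the size of those over all arrays. No run holds both TAF-tib6 and NSF, or both TAF-el4 and TAF-tib6. TAF-tib42 shares no run with TAF-tib6, and NSF shares none with TAF-tib42 or TAF-tib48, so those pairs could not be taken within a run. With the run as a block the number of member probes called fell to 2, against 6 without it, for TAF-tib6 against NSF, and to 4, against 7, for TAF-el4 against TAF-tib6. Of all 38522 probes tested, the block left 508 called, against 4249 without it, in TAF-tib6 against NSF, and 2096, against 7920, in TAF-el4 against TAF-tib6. For TAF-el4 against TAF-tib6 the calls of Egr1 (1.89), Egr2 (1.66), Fosl1 (1.15) and Jun (0.37) remained.

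**Figure D3:**
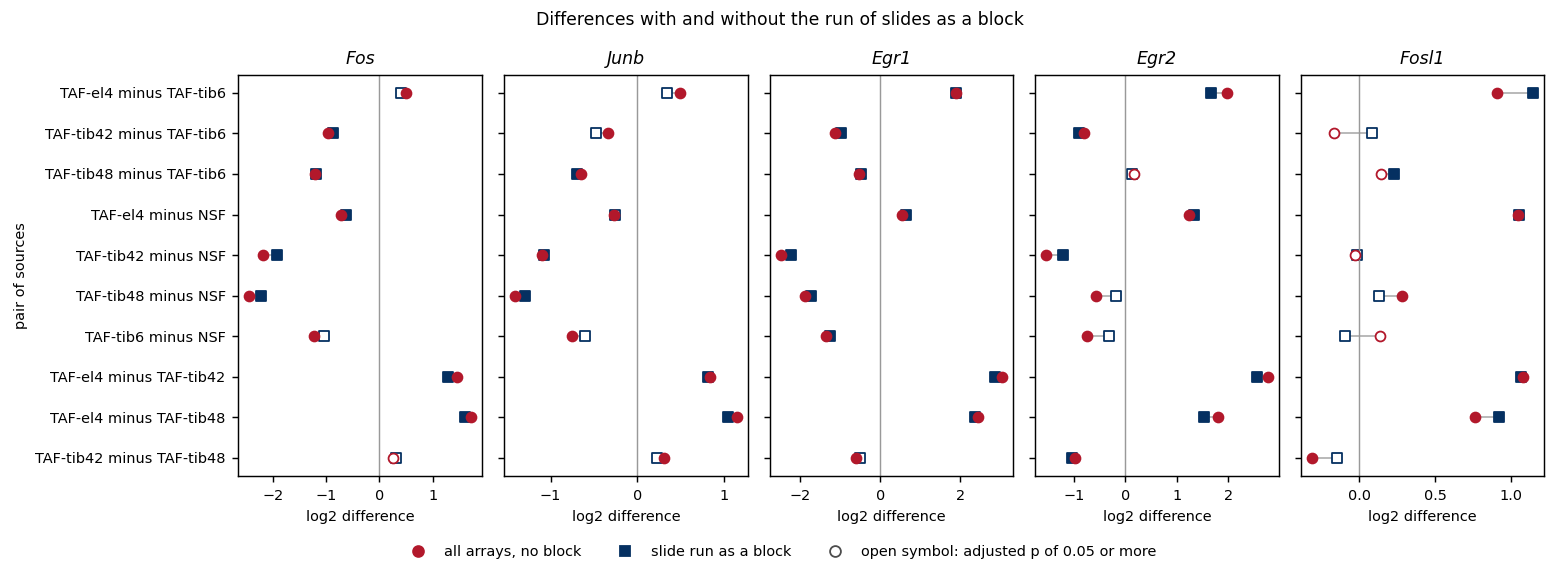
Log2 difference (x axis) of Fos, Junb, Egr1, Egr2 and Fosl1 in the 10 pairs of sources (y axis), from all arrays without a block (circles) and with the slide run as a block (squares); filled symbols have an adjusted p under 0.05. Circles and squares lie close together for Egr1, and squares are open for several pairs with TAF-tib6 for Fos, Junb and Egr2.

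Whether the members go with the response word of the labels was examined over the sources. With the source as the unit, 3 resistant means against 2 sensitive means, 0 of the 12 member probes were called by limma, as was 0.0026% of all probes tested, that is 1 probe. At an unadjusted p under 0.05, 1 member probe and 3666 of all probes stood. That member probe was the brighter one of Fosl2, with a mean of 1.07 in the resistant sources and 1.39 in the sensitive ones (log2 difference -0.32, SE 0.11, unadjusted p = 0.0328, adjusted p = 0.469). Its second probe differed by 0.10 in the other direction (adjusted p = 0.64). Egr2 averaged 0.31 ± 1.41 in the resistant sources and 0.23 ± 0.52 in the sensitive ones (SD over 3 and 2 source means), a difference of 0.08 with an SE of 0.82. Egr1 averaged -1.94 ± 1.61 against -1.34 ± 0.955, a difference of -0.60 with an SE of 0.99. Fos averaged -2.61 ± 0.93 against -1.44 ± 0.87, a difference of -1.17 with an SE of 0.63 (adjusted p = 0.634). For all 3 genes the sources of each response overlapped, since TAF-el4 stood above TAF-tib6 for each of them while TAF-tib42 or TAF-tib48, or both, stood below it, and with so few sources such SEs leave room for differences of several-fold.

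The genes most like each widely varying member were sought over the 15 arrays among the 510 genes whose source means spanned at least 1. The correlations describe arrays of only 5 sources and carry no test. Fos was most like Mst1r, a receptor tyrosine kinase (Pearson r = 0.978), Junb (0.967) and Olr1, a receptor of oxidised lipoproteins (0.967). Junb was most like Mst1r (0.969), Fos (0.967) and Nr4a1, an orphan nuclear receptor that is itself an immediate early gene (0.959). Egr1 was most like Phlda1, a growth-factor-induced gene (0.987), Smim3 (0.966) and Serpinb2, an inhibitor of plasminogen activators (0.965). Egr2 was most like Mmd (0.981), Thbd, which encodes thrombomodulin (0.958), and Smad7, an inhibitor of TGF-beta signalling (0.939). Fosl1 was most like Sgk1, a serum- and glucocorticoid-induced kinase (0.947), Rrm2, a subunit of ribonucleotide reductase (0.931), and Cck, which encodes cholecystokinin (0.92). Thus a member of the group was among the nearest of Fos and of Junb, and not of Egr1, Egr2 or Fosl1.

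The other immediate early genes were a list of 27 that were all measured. For the counts of this and the later lists, the share of all probes called in each pair is that given above. In TAF-el4 against TAF-tib48, 18 were higher and 2 lower, with a median log2 difference of 0.49 against 0.00 for all probes. Phlda1 rose by 2.11 and Nr4a1 by 2.09 in TAF-el4, Ptgs2, which encodes the inducible prostaglandin synthase, by 2.07, and Ccn2, a matricellular growth factor also called CTGF, by 2.07 (adjusted p between 9.66e-13 and 2.05e-09). In TAF-tib48 against NSF, 4 were higher and 17 lower, with a median of -0.54, led by Nr4a1 at -2.18, Nfkbia, an inhibitor of NF-kappaB, at -1.64, Phlda1 at -1.57 and Ier3, a stress-induced survival factor, at -1.53. In TAF-tib48 against TAF-tib6, 5 were higher and 15 lower, with a median of -0.38, and within their shared slide run 4 were higher and 15 lower. Within that run 8284 of all probes were called. The counts in TAF-el4 were 16 higher and 5 lower against TAF-tib6, 14 and 7 against TAF-tib42, and 9 and 9 against NSF. With the slide run as a block they were 7 and 4, 15 and 4, and 8 and 7. Of all 38522 probes, the block left 2096, 5379 and 5651 called in those pairs, against 7920, 8904 and 6707 without it. In TAF-tib6 against NSF, 4 were higher and 11 lower, and 0 and 1 with the block. There the block left 508 of all 38522 probes called, against 4249 without it. In TAF-tib42 against NSF 3 were higher and 12 lower, and 0 and 7 with the block, which left 2983 of all probes called, against 9306.

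Within the list, genes did not all follow Egr1 and Fos. Source means of Phlda1 were 0.69 in TAF-el4, -1.70 in TAF-tib42, -1.42 in TAF-tib48, -0.75 in TAF-tib6 and 0.14 in NSF, the order seen for Egr1. Ier2, a nuclear growth-response protein, read -0.25 in TAF-el4, -1.53 in TAF-tib42, -1.70 in TAF-tib48 and -1.32 in TAF-tib6, against -0.41 in NSF. Nfkbia instead was low in TAF-el4 at -1.52 and in TAF-tib48 at -1.37, and read 0.28 in TAF-tib42, 0.06 in TAF-tib6 and 0.27 in NSF. Zfp36l1, an RNA-binding protein that destabilises short-lived messages, was lower in TAF-el4 than in TAF-tib6 (log2 difference -1.45, adjusted p = 2.95e-07), where Egr1 and Egr2 were higher. Sgk1, like Fosl1, was high in TAF-el4, at 0.77, and lay between -0.94 and -0.53 in the other sources.

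**Figure D4:**
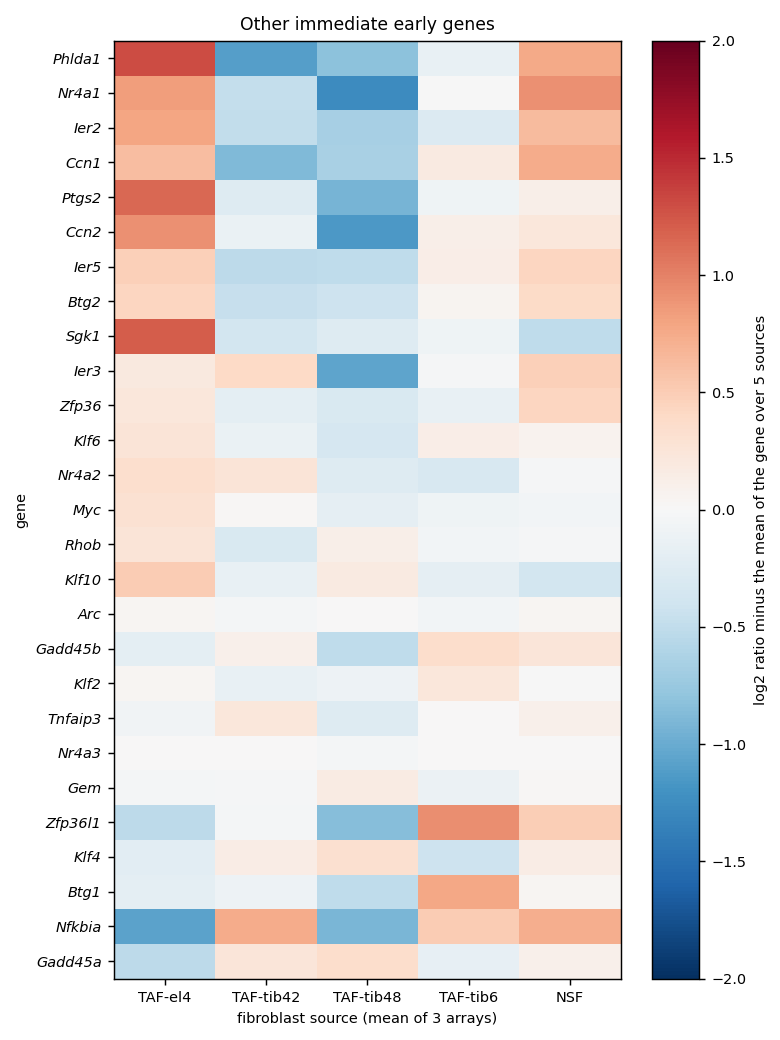
Source means of the 27 other immediate early genes (rows) in the 5 sources (columns), as log2 ratio minus the mean of the gene over the sources; red is above and blue below that mean. Phlda1, Nr4a1, Ier2 and Ccn1 are high in TAF-el4 and NSF and low in TAF-tib42 and TAF-tib48, whereas Nfkbia is low in TAF-el4 and TAF-tib48.

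Genes of ERK feedback, the dual-specificity phosphatases and Sprouty and Spred proteins that ERK induces and that dampen it, were measured for 11 of 12. Dusp6, the phosphatase that acts on ERK itself, had the widest difference of the list in 7 of the 10 pairs, all but the 3 of TAF-el4 and TAF-tib6 with each other and with NSF. It averaged -1.34 in TAF-el4, -3.49 in TAF-tib42, -3.01 in TAF-tib48, -1.73 in TAF-tib6 and -1.28 in NSF. It was 2.15 higher in TAF-el4 than in TAF-tib42 and 1.67 higher than in TAF-tib48, and it differed from NSF by -2.21 in TAF-tib42 and -1.73 in TAF-tib48 (adjusted p between 2.12e-14 and 2.48e-12). Of the list, 5 were higher and 1 lower in TAF-el4 against TAF-tib48, 2 and 0 against TAF-tib42, and 3 and 2 against TAF-tib6. The shares of all probes called in these pairs were 23.6%, 23.1% and 20.6%. The 2 of 11 genes called against TAF-tib42 are thus no larger a share than that of all probes. With the slide run as a block the list counts were 3 and 0, 2 and 0, and 2 and 0. The block left 3419, 5379 and 2096 of all 38522 probes called there. In TAF-tib48 against NSF 2 were higher and 6 lower, against 26.5% of all probes. With the slide run as a block this came to 0 and 3, against 2480 of all probes.

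Of 22 other AP-1 and EGR family genes 21 were measured. Those called went both ways in every pair of sources but TAF-tib6 against NSF. There 0 were higher and 6 lower, with a median of -0.12, against 11% of all probes. With the slide run as a block these were 0 and 1, against 508 of all 38522 probes. In TAF-el4 against TAF-tib48, 4 were higher and 8 lower, with a median of -0.05, and 4 and 4 with the slide run as a block. Of all probes, 23.6% were called in that pair, and 3419 of 38522 with the block. Maf, a basic leucine zipper factor, was 1.94 higher in TAF-el4 there and 2.26 higher than in TAF-tib42, and the small Maf gene Maff was 0.81 higher in TAF-el4 than in TAF-tib6. Ddit3, the stress factor CHOP, went the other way, with a log2 difference of -0.95 between TAF-el4 and TAF-tib48 and -0.56 between TAF-el4 and TAF-tib6. The EGR co-repressor Nab2, a target of Egr1, was 0.37 higher in TAF-el4 than in TAF-tib6 (adjusted p = 1.38e-05), while Nab1 fell by 0.56 in TAF-el4 relative to NSF (adjusted p = 2.76e-08).

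The 20 genes listed as AP-1 and EGR targets were all measured and were mixed in direction. In TAF-el4 against TAF-tib48, 11 were higher and 1 lower, with F3, the tissue factor that starts coagulation, higher by 3.04. Of all probes, 23.6% were called there and 20.6% in TAF-el4 against TAF-tib6. Against TAF-tib6, TAF-el4 had 7 higher and 3 lower: Timp1, an inhibitor of matrix metalloproteinases, was higher by 1.095, whereas Ccl2, a monocyte chemokine, fell by 1.52. Relative to NSF, Il6, an inflammatory cytokine, differed by -2.34 in TAF-el4, -0.91 in TAF-tib42, -3.57 in TAF-tib48 and -1.43 in TAF-tib6, which is not the order of any member of the group. Among 13 measured of 14 genes of serum response factor and its cofactors, Srf itself spanned little, from -0.06 in TAF-tib6 to 0.16 in TAF-el4, and Cnn1, a smooth muscle calponin that it drives, was 2.09 higher in TAF-el4 than in TAF-tib42 and 0.97 higher than in TAF-tib48. Of 11 heat shock genes 10 were measured. In TAF-el4 against TAF-tib6, 7 were higher and 2 lower with a median of 0.33, with Hspd1 at 0.63 and Hsph1 at 0.50. With the slide run as a block 0 were called, where 2096 of all 38522 probes stayed called, against 7920 without it. Hspa1a, the classical stress-induced member, fell by 0.53 in TAF-el4 relative to NSF. In resistant against sensitive sources, limma called 0 genes of any of these 6 lists.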

How the data were processed

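Spot intensities (mean signal and median local background of each dye) and the scanner's log10 ratio of Cy5 over Cy3, LOWESS-corrected for dye, were deposited, per the file headers. The software was Agilent Feature Extraction 8.5.1.1, per the submitters' processing notes, and a protocol label gives another version. The authors' deposited table of log2 ratios matched the scanner's ratios on the log2 scale array by array (slope and correlation 1). Its column medians were 0.0337 to 0.0511, so it was not centred, and the direction is Cy5 over Cy3.

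Background correction by normexp with an offset of 50 (limma 3.58.1, R 4.3.3) was applied here, and log2 ratios were normalised by loess within arrays and averaged per probe, without control spots and spots with an outlier flag. Saturated spots were kept, and no member spot was saturated. A probe was tested if Cy5 was well above background on all 3 arrays of at least 1 source. The 10 pairs of sources came from 1 limma fit of 15 arrays, and resistant sources were set against sensitive ones by limma on 5 source means. Tests were two-sided, with p-values adjusted by Benjamini-Hochberg over 38522 probes and called under 0.05. List genes were read at their brightest probe. Nothing in the labels tells separate cultures from repeat arrays, so p-values measure a spread between arrays that may be technical. The number of arrays limits the precision. Symbols of list genes came from accessions (22072 probes, RefSeq table of GRCm38.p6), from descriptions or gene names (1470) or stayed as in the files (17632).

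The members, the 6 lists and the rules for naming genes (the brightest probe first, up to 4 called genes per list and comparison, the 3 most correlated genes) were chosen with earlier results of these data known. The genes whose source means are given in full, and the motifs searched, were chosen after their values or sequences were seen. Fits were tested on simulated data. Alternatives were the background correction, the normalisation, the filter, the Cy5 channel alone, the authors' table, 1 probe per gene, the slide run or the replicate number as a block, pairs of sources alone and each replicate or source left out. One gene of the target list is not reported here.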

Additional observations from a re-analysis of the deposited data

How the results depend on the processing

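Over the single differences of the 12 probes, 1938 values under the alternatives kept their side of the threshold. Some of these changed sign where neither fit made a call. Egr3 in TAF-el4 against TAF-tib6, for example, went from 0.09 to -0.08 with the slide run as a block. Another 84 values lost and 17 gained a call, and 4 changed direction with a call. Those 4 were dim or flat probes: Egr3 in TAF-tib42 against NSF became 0.34 with median centring (adjusted p = 0.0114) and 0.78 with Cy5 alone (adjusted p = 0.0307), and Fosb with Cy5 alone became 0.42 in TAF-tib48 against NSF and -0.33 in TAF-el4 against TAF-tib48. The cause was not tested. With the slide run as a block, the member probes called were 4 for TAF-el4 against TAF-tib6 (7 without it), 3 for TAF-tib42 against TAF-tib6 (7), 5 for TAF-tib48 against NSF (8), 2 for TAF-tib6 against NSF (6) and 2 for TAF-tib42 against TAF-tib48 (6). Within the shared run, an alternative chosen after seeing the data, TAF-tib42 against TAF-tib48 had 2. Among all 38522 probes, the block left 2096 called (7920 without it), 3755 (9546), 2480 (10216), 508 (4249) and 3081 (5452) in the same pairs in that order. Log ratios scaled to 1 spread gave 3 for TAF-el4 against NSF and 3 for TAF-tib42 against TAF-tib48, and Cy5 alone gave 3 for TAF-tib42 against TAF-tib48. Leaving out each replicate number in turn gave 3 to 6 for TAF-tib42 against TAF-tib48. In resistant against sensitive sources 0 member probes were called under every alternative run. Replicate numbers did not pair the arrays: deviations of same-numbered arrays correlated at -0.19 to 0.16, and 2 of 15 arrays correlated best with their own number. A fit with the replicate block changed 1 member call, the second Fosl2 probe in TAF-tib42 against NSF (0.20, adjusted p = 0.0596). Signal over background limits what Egr3 and Atf3 can show.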
